A study of Mus musculus with 9 samples.

Results

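The genes described here encode 8 proteins that hold back messenger RNA, either by sending transcripts to decay or by blocking their translation: Zfp36, Zfp36l1 and Zfp36l2 of the tristetraprolin family, Zc3h12a and Zc3h12d of the Regnase family, Rc3h1 and Rc3h2 of the Roquin family, and Pdcd4. They were chosen by gene symbol, with earlier results of these data known. All 8 were found among the 24060 genes of the deposited table and among the 11330 genes tested. RNA was measured in 9 libraries of activated CD8 T cells, 3 for each of the clones named R7-I, R7-II and R7-III. Each clone comes from a transnuclear mouse line, made by transfer of the nucleus of 1 CD8 T cell specific for the Toxoplasma antigen ROP7, so each line stands for 1 T cell receptor, on a Rag2-proficient BALB/c background. Splenocytes of all lines received ROP7 peptide at 10 µM overnight in medium with IL-2 at 10 ng/ml, and the cells sorted for RNA were CD3+, CD8+ and positive for the H-2Ld-Rop7 tetramer. By the submitters' description of the design, R7-I binds the peptide most strongly, R7-III less and R7-II least, and self-reactivity runs from R7-III over R7-I to R7-II. In the paper's adhesion measurement on whole cells, R7-I and R7-III had similar affinities and R7-II a lower one. R7-I adhered more often than R7-III in it. The comparison asks how the activated cells of the 3 lines differ. With 1 line per receptor, binding strength cannot be told apart from self-reactivity or other traits of a line. The labels call the libraries biological replicates without saying whether they came from separate mice, and ages are not given, so the p-values measure only the spread between these libraries.

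Tristetraprolin proteins bind AU-rich elements in the 3′ untranslated region (3′ UTR) of short-lived transcripts, many of them of cytokines, and recruit the CCR4-NOT complex, which removes the poly(A) tail. Roquin proteins bind short stem-loops and recruit the same deadenylases, while Regnase-1, the product of Zc3h12a, cuts stem-loop transcripts with its own nuclease domain and is itself cleaved by the protease Malt1 after T cell receptor signalling. Pdcd4 binds the helicase eIF4A and keeps it from the cap-binding complex. In T cells these proteins are known for limiting cytokine production and for supporting quiescence.

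The AU-rich nonamer TTATTTATT, a preferred tristetraprolin site, was found in the 3′ UTR of 5 of the 8 genes, once in each, against 7.22% of the 10123 tested genes with an annotated 3′ UTR. The 8 genes have longer 3′ UTRs (median 1828.5 bases) than the 10123 genes (median 936 bases), so more room for a match. All 3 tristetraprolin genes and both Roquin genes hold the nonamer; Zc3h12a, Zc3h12d and Pdcd4 do not. The sites are shown because the genes of these repressors carry the element that one of their own families binds, with the nonamer in capitals, read 5′ to 3′ on the gene's strand, in mm10 coordinates.
Zfp36, chr7:28376951-28376979, minus strand: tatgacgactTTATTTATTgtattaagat
Zfp36l1, chr12:80108167-80108195, minus strand: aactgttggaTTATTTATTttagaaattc
Zfp36l2, chr17:84184914-84184942, minus strand: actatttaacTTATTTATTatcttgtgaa
Rc3h1, chr1:160970043-160970071, plus strand: actttactcaTTATTTATTgagatgagga
Rc3h2, chr2:37373287-37373315, minus strand: caaagacattTTATTTATTttactctgta

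For comparison, the 3′ UTR of Tnf, the classical tristetraprolin target, holds 5 overlapping nonamers and that of Il2 holds 1. A window of each is given with 1 nonamer in capitals. The Tnf window holds further nonamers that overlap the marked one and share some of its capital letters.
Tnf, chr17:35199678-35199706, minus strand: tatttattatTTATTTATTatttatttat
Il2, chr3:37120898-37120926, minus strand: ttatctgaaaTTATTTATTatattgaatt

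Pdcd4 carries a different known element, a match to the seed of the microRNA miR-21, of the 8-letter form ATAAGCTA, which 2.03% of the 10123 genes hold. It is shown beside the mature microRNA, whose seed (bases 2 to 8) is in capitals. Mature microRNAs are not captured in libraries made from poly(A) RNA, so miR-21 itself was not measured here.
Pdcd4 site, chr19:53929422-53929449, plus strand: gggtgttctgATAAGCTActttctaagt
mmu-miR-21a-5p, chr11:86584120-86584141, minus strand: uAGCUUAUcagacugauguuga

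The genes lie on 8 chromosomes of mm10 (GRCm38). Zfp36 spans chr7:28376784-28379228, Zfp36l1 chr12:80107760-80113013, Zfp36l2 chr17:84183924-84187947, Zc3h12a chr4:125118414-125127881, Zc3h12d chr10:7832323-7870397, Rc3h1 chr1:160906411-160974976, Rc3h2 chr2:37368861-37424370 and Pdcd4 chr19:53892231-53937592. The reads carried no strand, so reads of a gene and of an overlapping gene on the other strand cannot be told apart. Such overlaps exist for Zfp36l1, where the lincRNA Gm26669 shares 1672 of 2990 exon bases, and to a smaller extent for Zfp36 (Gm44710, 125 of 3470 bases) and Zfp36l2 (AC132455.1, 105 of 3530 bases).

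Levels are given as TPM, the authors' length-corrected transcript abundance, which sums to the same total in each library and holds no read depth. The libraries carried CD8 T cell transcripts at a summed TPM of 1764 to 2672 over 8 markers. Cd8b1 was the highest of them in R7-II, at 519 TPM against 319.75 in R7-I and 326 in R7-III. In R7-I and R7-III Cd8a was the highest, at 343 and 377 TPM. Transcripts of B cell, MHC class II and myeloid genes were low but higher in R7-II. The sum of 8 B cell markers was 34.2 to 71.2 TPM in R7-II against 8.14 to 15.2 in R7-I and 4.92 to 7.40 in R7-III. The sum of 7 MHC class II genes was 112 to 183, 32.4 to 50.3 and 24.3 to 28.1 TPM in that order, and that of 9 myeloid markers 24.4 to 82.0, 5.03 to 5.84 and 5.68 to 7.08 TPM. Of the tested genes, 7 of 7 B cell, 7 of 7 MHC class II and 7 of 9 myeloid genes were higher in R7-II in each of its comparisons, and so were 6 (against R7-I) and 7 (against R7-III) of 8 CD8 T cell markers. With quantile normalization the B cell count was 6 and 7 of 7, the MHC class II count 5 and 6 of 7, and the myeloid count 2 and 4 of 9 against R7-I and R7-III, and with median-of-ratios scaling they were 7 and 7, 5 and 7, and 7 and 6. The largest log2 fold changes against R7-I were those of Cd79b (2.11) and Cd79a (1.98) among B cell genes, Cd74 (2.10) and H2-Aa (1.91) among MHC class II genes, Lyz2 (4.34) and Cybb (1.67) among myeloid genes, and Cd3g (0.81) and Cd8b1 (0.69) among CD8 T cell genes. R7-II replicate 2 had the lowest sum of all 3 other-cell lists among the R7-II libraries. The CD4 T cell sum stayed between 3.36 and 8.01 TPM, the NK cell sum at or below 0.17 TPM, and the erythroid sum ran from 1.30 to 73.3 TPM, highest in R7-I; Cd40lg, Klrb1c and Hba-a2 were the most abundant genes of these lists, with clone means of at most 5.41, 0.07 and 36.8 TPM, and no gene of these lists passed against R7-I. Against R7-III, of 2 tested CD4 T cell genes Foxp3 was higher (0.59) and Cd40lg lower (-1.03) in R7-II, and 0 of 4 erythroid genes passed (1 lower in each comparison with quantile normalization). The part of these cells in the results below was not tested. In such bulk samples fewer cells of a type and less RNA per cell cannot be told apart.

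All comparisons used limma on log2(TPM + 1), with Benjamini-Hochberg adjustment over the 11330 genes and a threshold of 0.01. Every log2 fold change below is on this scale, which understates changes of low genes. Of the 8 repressor genes, 6 were higher and 0 lower in R7-II than R7-I, where 40.6% of all genes were called higher. Against R7-III, 7 were higher and 0 lower, where 35.6% of all genes were called higher. For R7-III against R7-I the limma count was 0 of 8, where 8.41% of all genes passed. At an unadjusted p under 0.05 this last comparison held 2 of the 8 genes, Rc3h1 and Pdcd4, and 32.3% of all genes. Libraries did not overlap, with R7-II higher, for 7 of the 8 genes against R7-I (all but Rc3h1) and for 8 of 8 against R7-III, as for 50.6% and 46.4% of all genes. R7-III and R7-I did not overlap for 3 of 8 (Pdcd4, Rc3h1 and Rc3h2), as for 41.9% of all genes. Both comparisons of R7-II share its libraries. The scaling matters here, because the median log2 fold change of all genes was 0.17 relative to R7-I and 0.12 relative to R7-III. When each library was instead scaled by its median-of-ratios factor, which removes this shift, 5 of the 8 genes were higher and 1 (Rc3h1) lower than in R7-I, and 6 were higher and 0 lower than in R7-III. Of all 11330 genes, the number called higher fell from 4604 to 2860 against R7-I and from 4038 to 2836 against R7-III. As a share of the called genes alone, those higher in R7-II fell from 72.4% to 46.2% and from 66.4% to 47.0%.

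**Figure D1:**
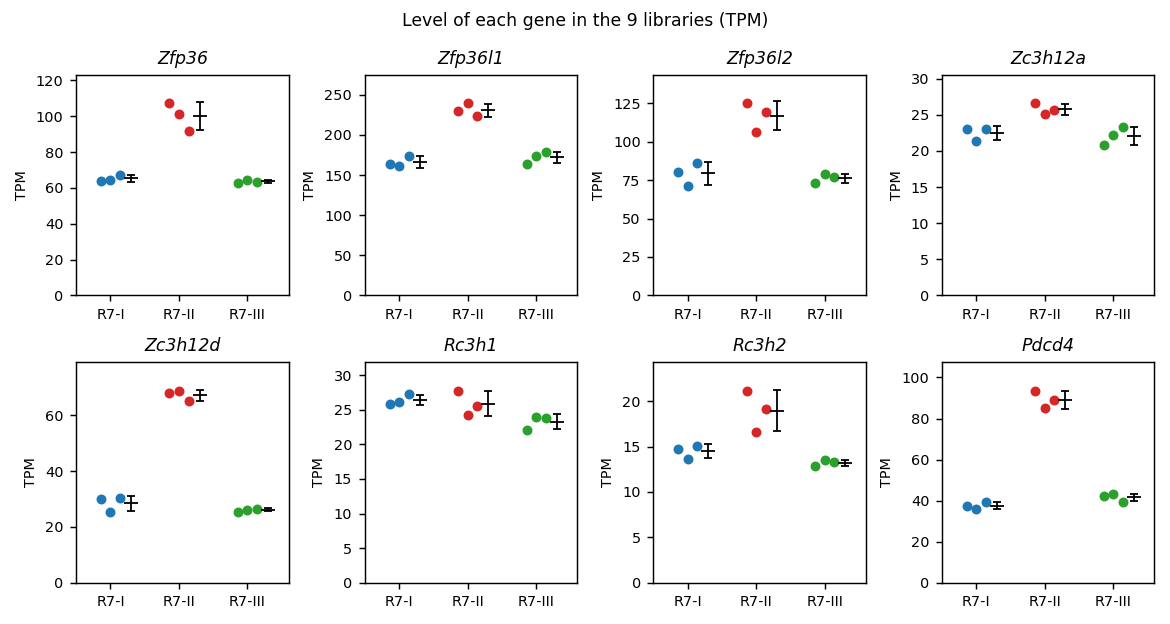
TPM of each gene (y axis, from 0) in the 3 libraries of each clone (coloured points), with the mean and SD in black. The R7-II libraries lie above the other 6 for every gene except Rc3h1, most clearly for Zc3h12d (65.0 to 68.8 TPM) and Pdcd4 (85.0 to 93.6 TPM).

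Pdcd4, the inhibitor of eIF4A, showed one of the largest differences. Its level was 37.53, 36.05 and 39.28 in the R7-I libraries, 93.59, 85.03 and 88.87 in R7-II, and 42.11, 43.09 and 39.53 TPM in R7-III. The 3 R7-II libraries exceeded the other 6, and R7-III was above R7-I in every library as well. The mean was 2.37 times that of R7-I (log2 fold change 1.22, SE 0.0502, adjusted p = 3.76e-08 from limma) and 2.14 times that of R7-III (1.08, adjusted p = 8.33e-08). Of all genes, 3.91% exceeded this log2 fold change against R7-I, and 4.11% that against R7-III. R7-III and R7-I differed by 0.14, which did not pass (95% interval 0.03 to 0.25, adjusted p = 0.0771 from limma).

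Zc3h12d, which encodes Regnase-4, a relative of Regnase-1 found in lymphocytes, differed by as much. The libraries gave 29.90, 25.25 and 30.25 in R7-I, 67.81, 68.82 and 65.01 in R7-II, and 25.52, 26.18 and 26.57 TPM in R7-III. R7-II again stood above all other libraries, while R7-I and R7-III overlapped. The ratio of means was 2.36 against R7-I (log2 fold change 1.22, SE 0.0634, adjusted p = 1.23e-07 from limma) and 2.58 against R7-III (1.33, adjusted p = 9.48e-08). Larger log2 fold changes were found for 3.99% and 2.66% of all genes. Pdcd4 and Zc3h12d were the members called and over 2-fold higher in both comparisons, as were 5.98% and 4.77% of all genes in the respective comparison.

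Zc3h12a, which encodes Regnase-1, was at 23.04, 21.40 and 22.99 in R7-I, 26.57, 25.08 and 25.62 in R7-II, and 20.78, 22.22 and 23.28 TPM in R7-III. The R7-II libraries were above the others by a small margin. The log2 fold change was 0.19 against R7-I (SE 0.0547, adjusted p = 0.0102, not called, from limma) and 0.21 against R7-III (adjusted p = 0.00546). These differences were close to the median of all genes (0.02 and 0.09 above it), and after median-of-ratios scaling they were 0.01 (adjusted p = 0.882 from limma) and 0.08 (adjusted p = 0.132), and with quantile normalization the one against R7-I turned to -0.0531. Against R7-III the call was also lost without R7-II replicate 1 or 3 or R7-III replicate 1 or 2 (adjusted p up to 0.0282 from limma), and against R7-I it was gained without R7-III replicate 1 or 3 (0.00951 and 0.00971 as adjusted p).

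The Regnase genes thus differed unequally, and a ratio inside a library does not depend on the scaling of that library. Zc3h12d over Zc3h12a was 1.30, 1.18 and 1.32 in R7-I, 2.55, 2.74 and 2.54 in R7-II, and 1.23, 1.18 and 1.14 in R7-III. The ratio was 2.14 times higher in R7-II than in the other 6 libraries (log2 difference 1.09, two-sided exact permutation test, p = 0.0238, which is the lowest 3 against 6 libraries allow, and 0.0476 adjusted over the 4 ratios tested). Zc3h12d made up 72.3% ± 0.869 of the pair's summed TPM in R7-II, 55.8% ± 1.47 in R7-I and 54.2% ± 0.912 in R7-III (SD, n = 3 each). The sum itself was 93.0 ± 2.04 TPM in R7-II against 50.9 ± 3.72 in R7-I and 48.2 ± 1.78 in R7-III.

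The tristetraprolin genes were all higher in R7-II, by log2 fold changes of 0.42 to 0.64. Zfp36, which encodes tristetraprolin itself and is induced early after stimulation, was at 64.15, 64.48 and 67.36 in R7-I, 107.21, 101.20 and 91.91 in R7-II, and 62.98, 64.59 and 63.33 TPM in R7-III. The R7-II libraries did not overlap the others, and those of R7-I and R7-III lay within a few TPM of each other. The log2 fold change came to 0.61 against R7-I (SE 0.0509, adjusted p = 2.85e-06 from limma) and 0.64 against R7-III (adjusted p = 1.85e-06). Zfp36l1, the most abundant of the 8 genes, was at 163.52, 160.98 and 174.29 in R7-I, 229.13, 239.27 and 223.23 in R7-II, and 164.28, 173.09 and 178.39 TPM in R7-III. Its log2 fold change was 0.47 and 0.42 in the same comparisons (SE 0.0422, adjusted p = 4.39e-06 and 1.00e-05 from limma). Zfp36l2, a paralog with known roles in lymphocyte quiescence, was at 80.41, 71.32 and 86.36 in R7-I, 124.85, 106.46 and 118.96 in R7-II, and 72.95, 78.66 and 76.77 TPM in R7-III. It was higher by 0.55 and 0.61 (SE 0.0726, adjusted p = 6.41e-05 and 3.43e-05 from limma), again with no overlap between R7-II and the rest. After median-of-ratios scaling all 3 genes were still called higher in R7-II, with log2 fold changes of 0.28 to 0.42 against R7-I and 0.29 to 0.51 against R7-III.

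Summed over the tristetraprolin family, the level was 447 ± 13.6 TPM in R7-II against 311 ± 15.8 in R7-I and 312 ± 9.99 in R7-III (SD, n = 3 each). Zfp36l1 made up 51.5% of this sum in R7-II, 53.5% in R7-I and 55.1% in R7-III. Neither ratio tested within the family set R7-II apart: Zfp36l2 over Zfp36l1 differed from the other 6 libraries by 0.14 on the log2 scale (exact two-sided permutation test, p = 0.143) and Zfp36 over Zfp36l2 by 0.05 (p = 0.571), and the libraries overlapped.

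The Roquin genes parted in another way. Rc3h1, which encodes Roquin-1, was at 25.79, 26.11 and 27.21 in R7-I, 27.76, 24.21 and 25.61 in R7-II, and 22.02, 23.91 and 23.83 TPM in R7-III. R7-I and R7-II overlapped, with a log2 fold change of -0.03 (95% interval -0.16 to 0.10, adjusted p = 0.672 from limma), and R7-III was the lowest. Against R7-III the difference was 0.15 (adjusted p = 0.0450 from limma, not called; -0.0305 with quantile normalization), and R7-III against R7-I gave -0.18 (adjusted p = 0.0605). These calls depended on the scaling: after median-of-ratios scaling Rc3h1 was lower in R7-II than R7-I by -0.21 (adjusted p = 0.00226 from limma) and lower in R7-III than in R7-I by -0.23 (adjusted p = 0.00776).

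Rc3h2, which encodes Roquin-2, was at 14.73, 13.68 and 15.10 in R7-I, 21.16, 16.59 and 19.15 in R7-II, and 12.83, 13.51 and 13.29 TPM in R7-III. Every R7-II library was above the other 6, though R7-II replicate 2 was only just so. The log2 fold change was 0.36 against R7-I (SE 0.0802, adjusted p = 0.00231 from limma) and 0.48 against R7-III (adjusted p = 3.45e-04). Against R7-I the call was lost after median-of-ratios scaling (0.18, adjusted p = 0.0357 from limma) and without R7-I replicate 2 (adjusted p = 0.0117). Rc3h1 over Rc3h2 was 1.75, 1.91 and 1.80 in R7-I, 1.31, 1.46 and 1.34 in R7-II, and 1.72, 1.77 and 1.79 in R7-III. This ratio was lower in R7-II than in the other 6 libraries, by a log2 difference of -0.39 (exact two-sided permutation test, p = 0.0238, and 0.0476 adjusted over the 4 ratios).

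**Figure D2:**
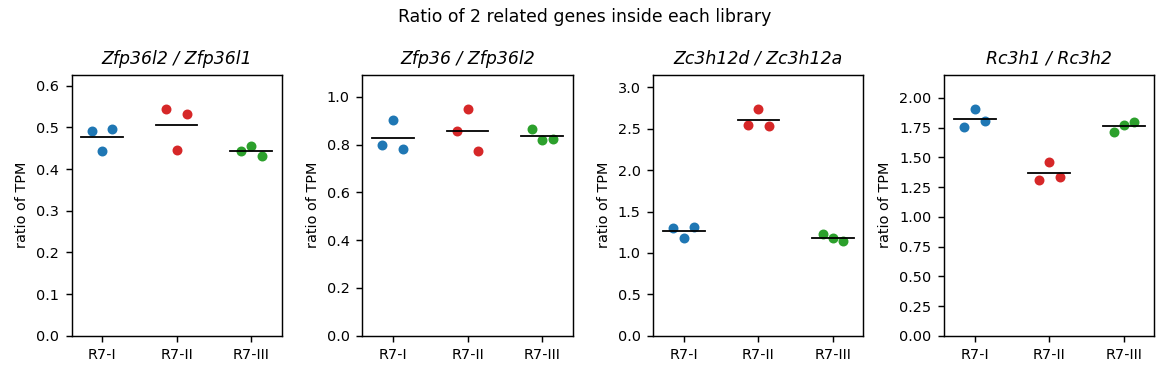
Ratio of the TPM of 2 related genes inside each library (y axis, from 0), with the geometric mean of each clone as a bar. Zc3h12d over Zc3h12a is 2.54 to 2.74 in R7-II and 1.14 to 1.32 elsewhere, Rc3h1 over Rc3h2 is 1.31 to 1.46 in R7-II and 1.72 to 1.91 elsewhere, and the ratios within the tristetraprolin family overlap.

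**Figure D3:**
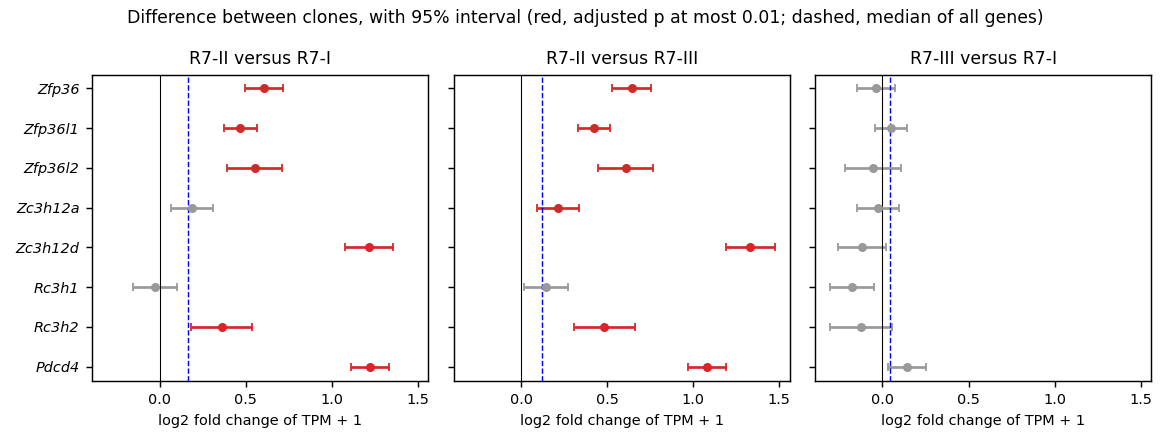
log2 fold change of TPM + 1 for each gene (x axis) with its 95% interval from limma in the 3 comparisons, red where the adjusted p was at most 0.01. The dashed line is the median of all genes (0.17, 0.12 and 0.04), which Pdcd4 exceeded by 1.06 and 0.96 and Zc3h12d by 1.05 and 1.21 in the R7-II comparisons.

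R7-II replicate 2 had the lowest sums of B cell, MHC class II and myeloid markers among the R7-II libraries. In it Zfp36l1 and Zc3h12d had their highest R7-II values, and Zfp36l2, Zc3h12a, Rc3h1, Rc3h2 and Pdcd4 their lowest. For Pdcd4 and Zc3h12d the log2 fold change against R7-I with any 1 library left out lay between 1.19 and 1.26 and between 1.13 and 1.26. Replicate 2 also had the lowest median-of-ratios factor of the R7-II libraries (1.05 against 1.11 and 1.081). Its marker sums (34.2, 112 and 24.4 TPM) still exceeded those of every R7-I and R7-III library (at most 15.2, 50.3 and 7.08 TPM). Leaving out 1 library therefore cannot show the part of other cells, which was not tested.

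The order of mean levels was Zfp36l1, Zfp36l2, Zfp36, Pdcd4, Zc3h12d, Rc3h1, Zc3h12a and Rc3h2 in every clone. In R7-I the libraries of Zc3h12d and Rc3h1 overlapped. In R7-II those of Zfp36l2 and Zfp36, of Zfp36 and Pdcd4, and of Rc3h1 and Zc3h12a overlapped, while Zc3h12d stood clear of Rc3h1 (67.2 against 25.9 TPM). In R7-III only Rc3h1 and Zc3h12a overlapped among neighbours.

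The genes whose pattern over the 9 libraries was most like that of a member were sought among 8261 genes by the root mean square difference of mean-centred log2(TPM + 1). For Pdcd4 they were Add1 (0.0490) and Fam168a (0.0562), and for Zc3h12d Id2 (0.0953) and Icos (0.0985). For Zfp36 they were Pik3c3 (0.0410) and Ubxn6 (0.0417), for Zfp36l1 Ccbl1 (0.0339) and Arl6ip5 (0.0356), for Zfp36l2 Cnppd1 (0.0361) and Pias1 (0.0388), and for Rc3h2 Znrf2 (0.0340) and Tprgl (0.0395). Id2, an inhibitor of E-protein transcription factors, was at 55.3 TPM in R7-II against 25.6 in R7-I and 22.9 in R7-III.

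The machinery on which these repressors act was read from lists by function. These lists were chosen with earlier results of these data known, so their counts are a description. For these and the lists that follow, 40.6% of all genes were called higher and 15.5% lower in R7-II than R7-I. Against R7-III the shares were 35.6% and 18%. Of 20 deadenylation genes (CCR4-NOT subunits, other deadenylases, poly(A) factors and the BTG/Tob adaptors), 17 were higher and 0 lower in R7-II than R7-I, and 12 higher and 1 lower than in R7-III, with median log2 fold changes of 0.28 and 0.17. After median-of-ratios scaling these counts were 7 higher and 3 lower, and 6 higher and 2 lower. Btg2, an antiproliferative adaptor of the deadenylases, was at 63.8 ± 5.40 TPM in R7-II against 28.8 ± 0.883 in R7-I and 30.9 ± 1.25 in R7-III (SD, n = 3 each; log2 fold change 1.12 and 1.02, adjusted p = 1.36e-07 and 2.58e-07 from limma). Tob1, its relative, was at 13.1 ± 1.25, 6.69 ± 0.480 and 7.99 ± 0.815 TPM in that order (0.87 and 0.65, adjusted p = 1.23e-05 and 1.08e-04 from limma). Both kept their calls after median-of-ratios scaling (0.94 and 0.89 for Btg2, 0.70 and 0.53 for Tob1).

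Among relatives of the Regnase nucleases, 3 of 6 listed genes were tested and 2 were higher in both comparisons. N4bp1, a nuclease-domain protein that is also cut by Malt1, was at 26.4 ± 1.80 TPM in R7-II against 12.8 ± 0.974 in R7-I and 13.6 ± 0.745 in R7-III (SD, n = 3 each; log2 fold change 0.99 and 0.90, adjusted p = 1.01e-06 and 1.91e-06 from limma). Khnyn, a nuclease cofactor of the antiviral protein ZAP, was higher by 0.84 and 0.64 (adjusted p = 2.44e-06 and 1.74e-05 from limma).

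Other decay pathways were read in the same way, where 40.6% and 35.6% of all genes were called higher against R7-I and R7-III. The decapping list had median log2 fold changes of 0.13 and 0.14, against 0.17 and 0.12 for all genes. Of 12 decapping genes 5 were higher and 0 lower in each comparison of R7-II, and Lsm14a (0.83 against R7-I, 0.22 against R7-III) and the 5′ exonuclease Xrn1 (0.49 and 0.56) led the list against R7-I; Lsm14a was not called against R7-III after median-of-ratios scaling (0.09, adjusted p = 0.0270 from limma). Of 10 genes of nonsense-mediated decay, whose helicase Upf1 works with Regnase-1, 5 were higher than in R7-I and 4 higher than in R7-III, with 0 lower, and Smg6 (0.50 and 0.40) and Smg1 (0.44 and 0.48) differed most against R7-I. The exosome and Ski complex went the other way, with 1 of 15 genes higher and 7 lower than in R7-I, and 1 higher and 8 lower than in R7-III. Exosc6 was lower by -0.55 and -0.39 and Ttc37 by -0.32 and -0.24. Of 14 other RNA-binding proteins of AU-rich and related elements, 5 were higher and 3 lower in each comparison. Arid5a, which protects transcripts from Regnase-1, was higher by 0.79 and 0.56, and Hnrnpll was lower by -0.62 and -0.65. These list counts depend on the scaling: after median-of-ratios scaling the decapping list gave 3 higher and 3 lower, the nonsense-mediated decay list 3 and 0, the exosome list 0 and 12, and the AU-rich list 2 and 8 (4 and 5 with quantile normalization) against R7-I.

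Of 14 kinases, proteases and adaptors that act on the repressors, 7 were higher and 2 lower in R7-II than R7-I, and 7 higher and 3 lower than in R7-III. The shares of all genes called higher were 40.6% and 35.6%. After median-of-ratios scaling the list counts were 5 higher and 6 lower, and 4 higher and 3 lower. Mapkapk3, a kinase of the p38 pathway related to the one that phosphorylates tristetraprolin, was at 68.2 ± 2.63 TPM in R7-II against 26.7 ± 0.682 in R7-I and 24.4 ± 2.17 in R7-III (SD, n = 3 each; log2 fold change 1.32 and 1.45, adjusted p = 7.07e-08 and 6.59e-08 from limma). Malt1, the protease that cleaves Regnase-1 and Roquins, was lower, at 55.5 ± 5.01 TPM against 98.95 ± 6.15 and 85.5 ± 5.57 TPM (-0.82 and -0.62, adjusted p = 3.40e-06 and 2.78e-05 from limma); it was named after its values were seen.

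On the translation side, of the 12 genes that hold Pdcd4's partners and the eIF4E-binding proteins, 4 were higher and 6 lower in R7-II than R7-I, and 3 higher and 5 lower than in R7-III (0 higher and 7 lower, and 1 higher and 7 lower, after median-of-ratios scaling; 4 higher and 4 lower, and 4 higher and 5 lower, with quantile normalization). Eif4ebp1, an inhibitor of the cap-binding protein, was lower by -0.40 and -0.54, and Eif4e, the cap-binding protein, by -0.36 and -0.23 (adjusted p from 9.92e-06 to 1.14e-04 from limma). Eif4a1, the helicase that Pdcd4 binds, was named after its values were seen; it was at 1931 TPM in R7-II against 2327 in R7-I and 2169 in R7-III (-0.27 and -0.17, adjusted p = 1.71e-06 and 4.96e-05 from limma). Its paralog Eif4a2 was at 417 ± 23.1 TPM in R7-II against 373 ± 4.07 in R7-I and 363 ± 8.99 in R7-III (SD, n = 3 each), higher by 0.16 and 0.20 (adjusted p = 0.00341 and 9.93e-04 from limma), but it was not called after median-of-ratios scaling (-0.0274 and 0.0628).

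**Figure D4:**
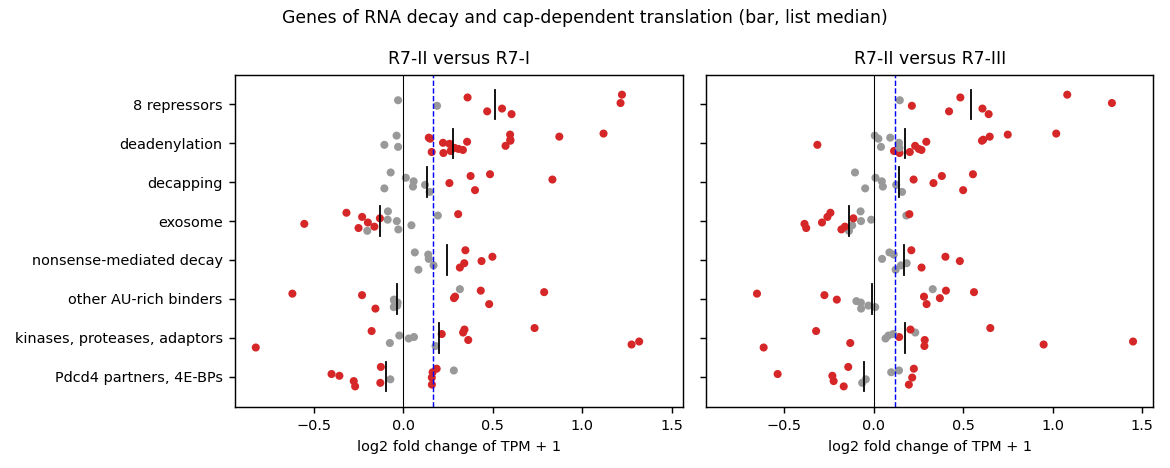
log2 fold change of TPM + 1 (x axis) of every tested gene in 8 lists, red where the adjusted p from limma was at most 0.01, with the list median as a black bar and the median of all genes as a dashed line. The repressors have a median of 0.51 and 0.55, the deadenylation genes 0.28 and 0.17, and the exosome genes -0.13 and -0.14.

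Of 24 transcripts named in the field as targets of these repressors, 19 were tested. The list was chosen with earlier results of these data known, so its counts are a description and no independent test. In R7-II 3 were higher and 14 lower than in R7-I, and 3 higher and 12 lower than in R7-III, where 15.5% and 18.0% of all genes were called lower. After median-of-ratios scaling the counts were 3 higher and 14 lower in both. With that scaling 6194 and 6035 of all 11330 genes were called, of which 2860 and 2836 were higher in R7-II and the rest lower. Many of these genes are also induced by T cell receptor signalling, and steady-state levels do not separate synthesis from decay. Il3, a cytokine, was at 0.12 to 0.41 TPM in R7-II against 11.7 to 12.8 in R7-I and 20.07 to 20.98 in R7-III (log2 fold change -3.42 and -4.10, adjusted p = 6.19e-09 and 1.28e-09 from limma). Il2, whose site is printed above, was at 35.8 to 58.1 TPM in R7-II against 144.79 to 166.7 in R7-I and 176.2 to 226 in R7-III (-1.66 and -2.01, adjusted p = 5.19e-06 and 1.37e-06 from limma). Tnf, with 5 nonamers, was at 95.0 to 118 TPM in R7-II against 144 to 149 in R7-I and 108 to 125 in R7-III, lower than in R7-I (-0.50, adjusted p = 1.58e-04 from limma) but not called against R7-III (-0.15, adjusted p = 0.102), where it was after median-of-ratios scaling (-0.28, adjusted p = 0.00625). Il2 and Tnf were named for their sites, with their values known.

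The 3 listed targets that were higher in R7-II were Ctla4, Icos and Bcl2, of which Icos and Bcl2 were named after their values were seen. Ctla4, an inhibitory receptor, was at 60.3 to 66.1 TPM in R7-II against 10.3 to 13.3 in R7-I and 12.1 to 15.2 in R7-III (log2 fold change 2.31 and 2.15, adjusted p = 3.94e-08 and 7.11e-08 from limma). Icos, a costimulatory receptor and the classical Roquin target, was at 75.5 to 83.3, 35.9 to 39.1 and 33.6 to 35.4 TPM in that order (1.07 and 1.19), and Bcl2, an inhibitor of cell death with 2 nonamers in its 3′ UTR, at 32.6 to 41.0, 11.3 to 11.8 and 13.7 to 15.3 TPM (1.59 and 1.28). All 3 kept their direction and calls after median-of-ratios scaling.

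**Figure D5:**
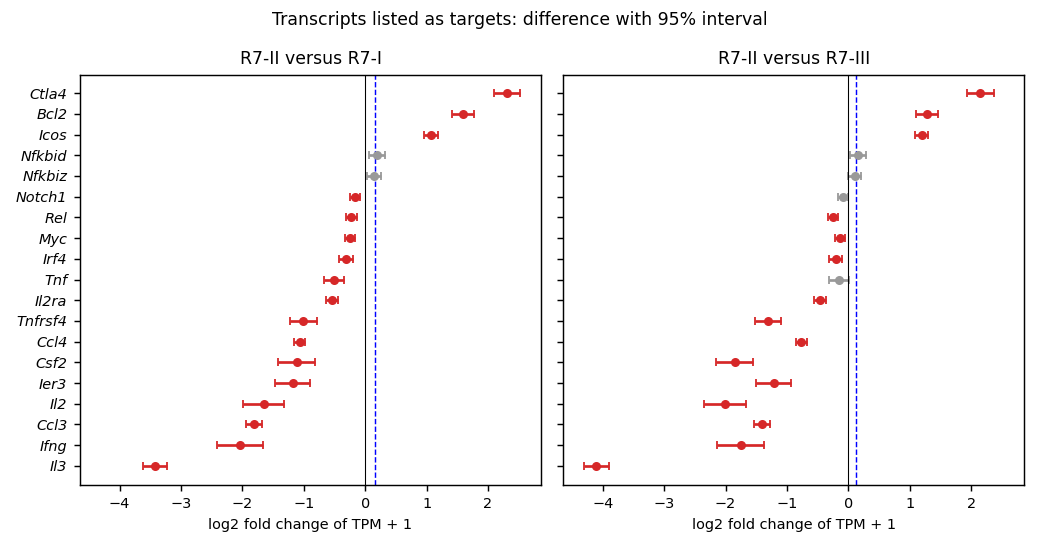
log2 fold change of TPM + 1 (x axis) with its 95% interval for the 19 tested target transcripts, red where the adjusted p from limma was at most 0.01, with the median of all genes dashed. In R7-II against R7-I 14 lie below 0 and are called, and Ctla4, Bcl2 and Icos are called above it.

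Genes were also grouped by their number of nonamers. Of the 19 tested targets, 6 held it, and 11 held the shorter heptamer TATTTAT, which 27.1% of all genes hold. Among the 10123 genes with a 3′ UTR, 41.3% of those with no nonamer, 39.7% of those with 1 and 34.6% of those with 2 or more were called higher in R7-II than R7-I, and 16.2%, 18.6% and 16.7% were called lower. Against R7-III the shares were 35.9%, 37.7% and 34.0% higher and 19.0%, 18.6% and 17.3% lower. The classes differ in 3′ UTR length, with medians of 877, 2026 and 2689.5 bases, so these shares are a description without a test.

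Immediate early genes, which are induced together with Zfp36 after stimulation, were mixed, with 8 of 13 higher and 2 lower than in R7-I and 6 higher and 2 lower than in R7-III (4 higher and 3 lower, and 6 and 2, after median-of-ratios scaling). The shares of all genes called higher, without that scaling, were 40.6% and 35.6%. Fosb (1.64 and 1.73) and Dusp1 (1.31 and 0.99) differed most against R7-I.

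The 250 bases before an annotated start were read for the 7 members with a RefSeq promoter entry. Pdcd4 has 2 entries and Zfp36l2 has none. The start used is not always the outermost one. The windows of Rc3h2 and of the downstream Pdcd4 entry lie within the gene spans given above. That of Zc3h12d lies partly within its span, and its Klf match is in that part. The letters searched on both strands were TGTTTAC for Foxo, TGANTCA for AP-1, TGACGTCA for a cyclic AMP element, GCGNGGGCG for Egr, CCACNCCC for Klf and CACGTG for an E-box, which 3.17%, 6.75%, 1.55%, 4.70%, 15.9% and 6.02% of 32851 promoters hold. Klf letters were in 5 of the 7 members (Zfp36, Zfp36l1, Zc3h12a, Zc3h12d and, in 3 copies, Rc3h1), AP-1 letters in Zfp36l1 and Rc3h1, and Egr letters in Zfp36. The Rc3h2 promoter and both of Pdcd4 held none of them, and no member held Foxo letters. The shares include promoters of genes not tested here and were not matched for base composition. Rc3h1, with 3 Klf copies, was not called in the main fit of any comparison. Whether these letters go with the differences between clones was not tested. The promoters of Zfp36 and Zc3h12d are shown, the first for its 2 kinds of match and the second as that of a gene with a large difference, with matches in capitals (RefSeq, GRCm38.p6).
Zfp36, chr7:28379229-28379478, minus strand: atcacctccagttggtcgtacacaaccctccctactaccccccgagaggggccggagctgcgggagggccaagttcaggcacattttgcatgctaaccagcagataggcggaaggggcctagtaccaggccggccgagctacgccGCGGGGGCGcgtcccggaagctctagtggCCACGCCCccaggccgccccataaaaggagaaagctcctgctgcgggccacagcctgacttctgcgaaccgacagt
Zc3h12d, chr10:7832220-7832469, plus strand: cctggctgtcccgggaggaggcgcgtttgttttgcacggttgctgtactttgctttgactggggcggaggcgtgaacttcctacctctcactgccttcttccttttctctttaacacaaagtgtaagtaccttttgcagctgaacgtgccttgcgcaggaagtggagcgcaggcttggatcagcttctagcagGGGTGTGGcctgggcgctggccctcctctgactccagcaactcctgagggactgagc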

How the data were processed

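RSEM 1.2.11 was used by the authors for alignment and gene-level estimates relative to RefSeq genes of mm10, and the deposited values are TPM, rounded, in 9 libraries, 3 per clone. The authors tested with DESeq2 1.8.1 on their counts, which were not used here. TPM holds no depth, and the methods give only a typical read number, so the counting error of a library is unknown; the aligner that ran within RSEM was not given in the sources used here. Since TPM is not a count, limma 3.58.1 in R 4.3.3 (lmFit, eBayes with trend) was run on log2(TPM + 1), after removal of genes never above 1 TPM (11330 kept), with 1 model for the 9 libraries, p-values adjusted by Benjamini-Hochberg and 0.01 as threshold. Ratios between paralogs were tested with exact two-sided permutation tests (scipy 1.17.1, Python 3.11.15), R7-II against the other 6 libraries. The fit was tested on simulated data.

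The members and gene lists were chosen with earlier results of these data known. Named are all 8 members, the 2 genes of largest change past the threshold against R7-I in each list, the most abundant gene of each marker list, genes most like a member among those reaching 10 TPM, and others where stated, except 1 gene that is not reported here; the sequence elements were chosen after seeing the data. 3′ UTRs are from GENCODE M21 (GRCm38, the same build as mm10), from the transcript with the longest coding sequence. The settings varied were the pseudocount, the filter on low values, the scaling, the moderation and the threshold; further fits took only the clones compared, a replicate block, or 1 library less. Unstimulated samples were not analysed here.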

Additional observations from a re-analysis of the deposited data

How the results depend on the processing

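The number of members called between R7-III and R7-I rose from 0 to 1 (Rc3h1, lower) with median-of-ratios scaling and with quantile normalization, and that of all genes from 953 to 2142 at an adjusted p of 0.05; without a library in turn it lay between 436 (without R7-I replicate 1) and 1120. Directions turned for Zc3h12a against R7-I (-0.0531) and Rc3h1 in R7-II against R7-III (-0.0305) with quantile normalization, and for Zfp36l1 in R7-III against R7-I (-0.0056) with median-of-ratios scaling. With a library left out, the log2 fold change of Rc3h1 in R7-II against R7-I lay between -0.0793 and 0.0158 (above 0 without R7-II replicate 2), and in R7-III against R7-I those of Zc3h12a between -0.0613 and 0.0171 and of Zfp36l2 between -0.13 and 0.0067. The log2 differences of ratios lay between -0.0287 and 0.12 for Zfp36 over Zfp36l2 (below 0 without R7-II replicate 2), 0.08 and 0.23 for Zfp36l2 over Zfp36l1, 1.06 and 1.12 for Zc3h12d over Zc3h12a, and -0.43 and -0.36 for Rc3h1 over Rc3h2; without an R7-II library the last pair gave p = 0.0714 in the exact permutation test, the smallest that 2 against 6 libraries allow. Besides the calls already given for median-of-ratios scaling and for libraries left out, the changed calls were Rc3h1 against R7-I with quantile normalization (-0.27, adjusted p = 7.51e-04 from limma), Rc3h2 against R7-I (0.09, adjusted p = 0.252) and Zc3h12a against R7-III (0.0426, adjusted p = 0.445) with the same setting, Zc3h12a against R7-I and Rc3h1 against R7-III at a threshold of 0.05 (7 and 8 members called), Zc3h12a against R7-III in a fit of only both clones (adjusted p = 0.0113) and Zc3h12a against R7-I with robust moderation (adjusted p = 0.00993). Pdcd4, Zc3h12d, Zfp36, Zfp36l1 and Zfp36l2 kept their calls in both R7-II comparisons under all 20 alternatives. Same-numbered libraries did not deviate together over all genes (r between -0.04 and 0.09 over 9 pairs), and differently numbered ones gave r between -0.09 and 0.06. Such values cannot tell whether libraries of the same number were prepared together, which the labels do not state. With the replicate block 6, 7 and 0 members were called. The depth of each library is not known from TPM, and beyond the alternatives' own construction the cause of these changes was not tested.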
